A study of Mus musculus with 8 samples.

Results

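The kinase Cdk1, its B-type cyclin partners Ccnb1, Ccnb2 and Ccnb3, the activating phosphatases Cdc25a, Cdc25b and Cdc25c, and the inhibitory kinases Wee1, Wee2 and Pkmyt1 were followed through maturation of mouse oocytes grown in culture. These 10 genes were chosen by name, as the core of the switch that starts and ends M phase, from 55385 genes in the count table. All 10 passed the filter on low counts.

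Polyadenylated RNA was sequenced from pools of oocytes derived in vitro from embryonic stem cells (ESCs). Oocytes of a sex-converted XX line, whose XX cells came from male mice, were set against oocytes of a native XX line, and both were collected at metaphase II (MII, mature eggs) or as germinal vesicle oocytes (GV, fully grown and in prophase arrest). Each of the 4 groups had 2 libraries, described as biological duplicates. Per the labels, all groups shared the strain background C57BL/6 x 129/SvJ, the Blimp1-mVenus and Stella-ECFP reporter transgenes, aggregation with somatic cells of female gonads from embryonic day 12.5, 2 days of aggregate culture with 1 µM retinoic acid and Y27632, differentiation culture to day 21, and growth culture to day 11 with FSH and, at first, BMP15 and GDF9. MII oocytes had a further 16 h of maturation with FSH, EGF and hCG, were freed of cumulus cells with hyaluronidase and were picked by their polar body, whereas GV oocytes were stripped with a capillary in the presence of dibutyryl-cAMP and IBMX, which hold prophase arrest. Between 35 and 58 oocytes at MII and between 31 and 158 at GV went into a library. Each line stood for 1 stem cell line, so a difference between lines would not be separable from a difference between clones. The p-values measure the spread between these duplicates, estimated for each gene over all 4 groups together.

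Cdk1 bound to a B cyclin is the kinase that drives entry into M phase. Wee kinases hold it inactive by phosphorylation and Cdc25 phosphatases remove that phosphate, so the balance of these enzymes sets when prophase arrest ends. In the oocyte, cAMP signalling keeps Wee2 active and Cdc25b inhibited until maturation is triggered, and Cdk1 with cyclin B is active again in the metaphase II arrest. Many maternal mRNAs are stored with short poly(A) tails and lengthened in maturation through the cytoplasmic polyadenylation element (CPE), a short uridine-rich motif near the end of the 3′ UTR.

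The ends of the transcripts are shown because libraries were made from polyadenylated RNA, in which a longer poly(A) tail and more mRNA cannot be told apart. The CPE was searched as TTTTAT or TTTTAAT, and the poly(A) signal as AATAAA or ATTAAA, on the transcript strand in the last 150 bases of each annotated 3′ UTR. Stretches of 30 bases follow, 5′ to 3′, with every match to either motif in capitals, from GENCODE M21 transcripts on GRCm38.

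Ccnb1: ctcatttgctgTTTTAATttatacatctga
Wee2: tcattgtaAATAAAgaTTTTATcttatcca
Ccnb3: tcttgaaattacTTTTATgaaagaagagaa
Ccnb2: gtattgaaggaaAATAAAgctattgatcta
Cdk1: ctaatggcacggAATAAAaggattattcac

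The Ccnb1 stretch lies at chr13:100778775-100778804 on the minus strand, the Wee2 stretch at chr6:40466780-40466809 on the plus strand, and the Ccnb3 stretch at chrX:6979702-6979731 on the minus strand. The Ccnb2 stretch is at chr9:70407693-70407722 and the Cdk1 stretch at chr10:69335156-69335185, both on the minus strand. In Ccnb1 the element began 62 bases from the end of the shorter annotated transcript and 144 bases from that of the longer one. Wee2 held 2 matches, the last of which began 18 bases from the end, and Ccnb3 held 1, which began 68 bases from the end. No match was found in this window in Cdk1, Ccnb2, Cdc25a, Cdc25b, Cdc25c, Wee1 or Pkmyt1, whose 3′ UTR is shorter, at 124 bases. Of 17981 genes with a 3′ UTR of at least 150 bases, 23.4% held the element. A match is a description of the letters and not of a working site.

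The labelled cell type was checked first. Summed over 14 oocyte marker genes, expression was 14121 to 16820 CPM (read counts scaled to a common library size by total and TMM factor) at MII and 15550 to 18201 CPM at GV. Sums over 16 granulosa and cumulus markers were 118 to 151 CPM at MII and 57.1 to 79 CPM at GV. Areg and Fshr were at 0 reads in all 4 MII libraries. Tnfaip6 was at 0 reads in all GV libraries and, at MII, only in sex-converted replicate 2. Of the 16, 8 to 13 were detected at MII and 9 to 13 at GV. Stromal and theca markers stood apart in 2 MII libraries. Over those 12 genes the sums were 57.3 and 15.6 CPM in sex-converted MII oocytes and 88.3 and 16.2 CPM in native MII oocytes, against 1.37 to 1.55 CPM at GV. Of the 12, 6 to 8 were detected at MII and 4 or 5 at GV. Col1a2, Col3a1, Cyp17a1 and Lum were at 0 reads in every MII library. Acta2 and Spp1 were at 0 reads in every GV library and were detected in every MII library. Tagln was also at 0 reads at GV, and was detected at MII in replicate 1 of each line only. Library totals ran from 10306471 to 14999003 reads.

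**Figure D1:**
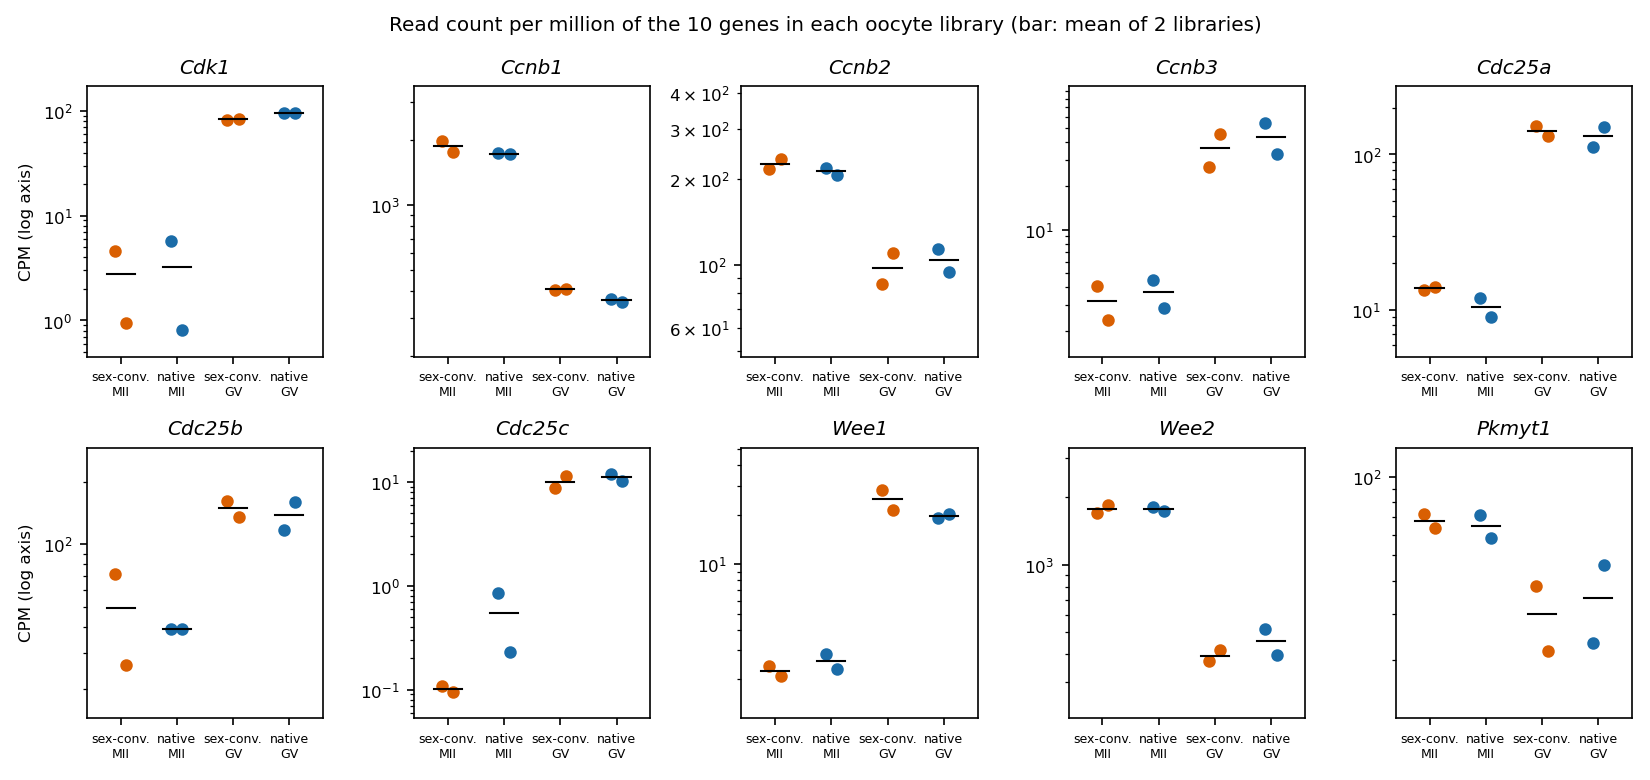
Expression of the 10 genes in each library, in CPM on log axes whose range differs between panels; points are libraries, bars are means of 2 libraries, and colours are the lines (orange sex-converted, blue native). Ccnb1, Ccnb2, Wee2 and Pkmyt1 sat higher at MII and the other 6 genes lower, with no overlap between stages in either line.

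In maturation 4 of the 10 genes rose and 6 fell, in both lines. Ccnb1, Ccnb2, Wee2 and Pkmyt1 were higher at MII, and Cdk1, Ccnb3, Cdc25a, Cdc25b, Cdc25c and Wee1 were lower. Each family of paralogs therefore held genes of both directions, except the Cdc25 family, in which all 3 fell. Across all 14929 genes tested, 29.3% were called higher and 36.2% lower at MII in the sex-converted line, and 29.6% and 35.7% in the native line (edgeR quasi-likelihood test, Benjamini-Hochberg adjusted p under 0.05). Groups did not overlap for any of the 10 genes, which was also true of 84.8% of all genes in the sex-converted line and 83.5% in the native line. The median absolute log2 fold change was 2.78 for the 10 genes and 1.63 for all genes in the sex-converted line, and 2.59 against 1.63 in the native line. These changes are relative to other mRNAs, and in pools fewer contributing cells and less RNA per cell cannot be told apart.

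**Figure D2:**
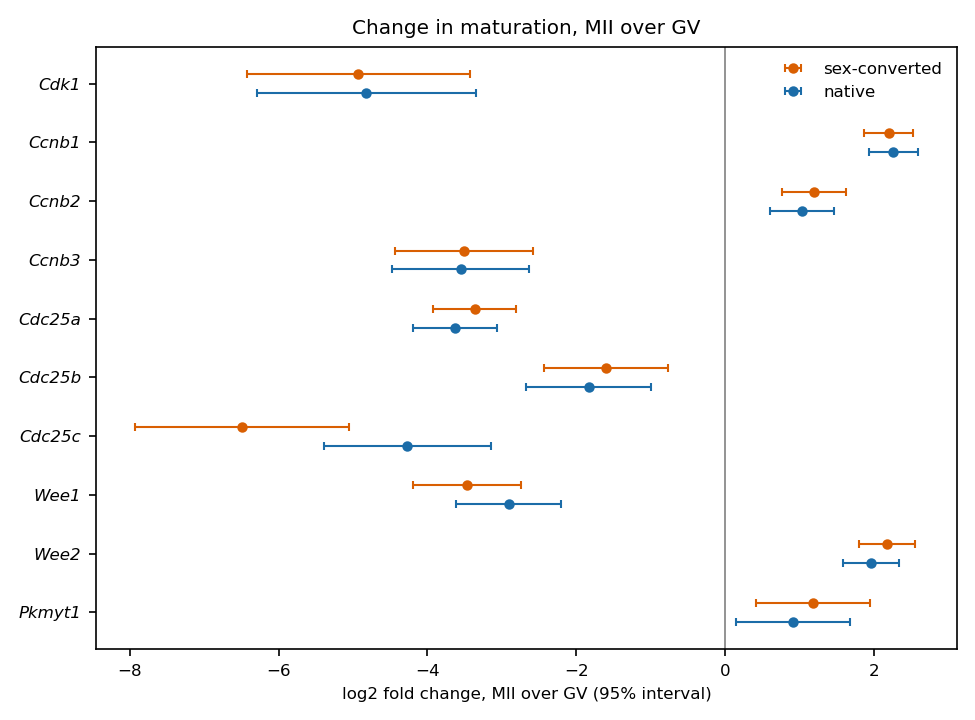
Log2 fold change of MII over GV for each gene in the sex-converted (orange) and native (blue) line, with 95% intervals from the quasi-likelihood fit. No interval includes 0, and those of the lines overlap for every gene.

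Cdk1 (ENSMUSG00000019942.13, chr10:69335146-69352938, minus strand) encodes the catalytic subunit itself and is required for meiotic resumption in mouse oocytes. Its level was 4.6 and 0.951 CPM in sex-converted MII oocytes, against 81.4 and 84.4 CPM in sex-converted GV oocytes. In the native line it was 5.73 and 0.81 CPM in MII oocytes, against 95.1 and 96 CPM in GV oocytes. The GV libraries lay close together, and the MII libraries of a line differed several-fold while all staying far below GV. The log2 fold change was -4.93 ± 0.682 (SE, adjusted p = 7.92e-05), or 30.5-fold lower, in sex-converted oocytes and -4.82 ± 0.668 (adjusted p = 8.11e-05), or 28.2-fold lower, in native oocytes. Only 3.99% and 3.45% of all genes had a lower value in these comparisons.

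The size of the Cdk1 decrease depended on 1 MII library in each line. The MII libraries held 42 and 10 Cdk1 reads in the sex-converted line and 60 and 7 in the native line, and in both lines replicate 1, with more Cdk1 reads, was the library with the higher stromal marker sum. Without replicate 1 the log2 fold change was -6.44 in sex-converted and -6.88 in native oocytes, and without replicate 2 it was -4.17 and -4.08. The part of other cells in the residual Cdk1 reads was not tested.

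Among the cyclins, Ccnb1 (ENSMUSG00000041431.16, chr13:100778650-100786570, minus strand) encodes cyclin B1, the main partner of Cdk1, whose stored mRNA is translated in maturation. It had 1987 and 1764 CPM in sex-converted MII oocytes, against 406 and 411 CPM in sex-converted GV oocytes. Native MII oocytes had 1750 and 1727 CPM, against 369 and 357 CPM in native GV oocytes. The stages were far apart and duplicates were close. The gene rose 4.59-fold in sex-converted oocytes (log2 2.20 ± 0.147 SE, adjusted p = 8.13e-07) and 4.79-fold in native oocytes (log2 2.26 ± 0.148, adjusted p = 6.91e-07). The size of the rise depended on the scaling. With library totals alone the log2 fold change was 1.26 in sex-converted and 1.35 in native oocytes, still called in both lines. The processed pseudogene Ccnb1-ps had 40 to 75 reads in MII libraries and 7 to 23 in GV libraries, against 14924 to 18546 and 5072 to 8441 reads of Ccnb1.

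Ccnb2 (ENSMUSG00000032218.7, chr9:70407692-70421547, minus strand), which encodes cyclin B2 and can stand in for cyclin B1 in mouse oocytes, rose less. Its level was 217 and 235 CPM in sex-converted MII oocytes, against 85.8 and 110 CPM in sex-converted GV oocytes. In native oocytes it was 219 and 207 CPM at MII, against 114 and 94.3 CPM at GV. These are 2.3-fold and 2.04-fold increases (log2 1.20 ± 0.196 and 1.03 ± 0.195, adjusted p = 0.000256 and 0.000756). The call depended on the scaling. With library totals as the only scaling, which shifted the all-gene median log2 fold change by -0.93 and -0.91, Ccnb2 changed by 0.27 (adjusted p = 0.211) in the sex-converted line and 0.12 (adjusted p = 0.569) in the native line.

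Ccnb3 (ENSMUSG00000051592.14, chrX:6979652-7041619, minus strand), a cyclin that mouse oocytes need to leave metaphase of the first division, moved the opposite way from the other B cyclins. It had 4.05 and 2.38 CPM in sex-converted MII oocytes, against 27.2 and 45.5 CPM in sex-converted GV oocytes, and 4.49 and 2.89 CPM in native MII oocytes, against 54.4 and 33 CPM in native GV oocytes. The decreases were 11.4-fold and 11.7-fold (log2 -3.51 ± 0.422 and -3.55 ± 0.419, adjusted p = 2.91e-05 and 2.47e-05). As shown by the sequences above, Ccnb3 was the lowered gene of the 10 with a CPE match in its 3′ end, while Ccnb1 and Wee2 were the raised genes with one. Among all tested genes with a 3′ UTR of at least 150 bases, 39.5% of those called higher in the sex-converted line held the element, as did 14.4% of those called lower and 23.7% of those not called. The shares in the native line were 39.3%, 14.4% and 23.6%. The poly(A) signal differed in the same direction. It was held by 88.1%, 74.4% and 83.3% in the sex-converted line and 87.6%, 74.9% and 83% in the native line. Whether the element took part in these changes was not tested.

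The Cdc25 phosphatase genes all fell, by very different amounts. Cdc25b (ENSMUSG00000027330.16, chr2:131186949-131198497, plus strand) encodes the phosphatase without which mouse oocytes do not resume meiosis, and it kept the highest level of the family. It had 72.1 and 26.1 CPM in sex-converted MII oocytes, against 162 and 135 CPM in sex-converted GV oocytes, and 39 and 38.9 CPM in native MII oocytes, against 117 and 160 CPM in native GV oocytes. The decreases were 3.04-fold (log2 -1.60 ± 0.378, adjusted p = 0.00322) and 3.56-fold (log2 -1.83 ± 0.382, adjusted p = 0.00146). Sex-converted MII replicate 1 stood apart from the other 3 MII libraries, and without it the log2 fold change in that line was -2.52.

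Cdc25a (ENSMUSG00000032477.14, chr9:109875579-109893895, plus strand) encodes a phosphatase that acts on several Cdks and also takes part in meiotic resumption in mouse oocytes. Its level was 13.5 and 14.1 CPM in sex-converted MII oocytes, against 153 and 131 CPM in sex-converted GV oocytes. Native MII oocytes had 12 and 9.03 CPM, against 111 and 150 CPM in native GV oocytes. The gene was 10.3-fold and 12.4-fold lower (log2 -3.36 ± 0.253 and -3.63 ± 0.257, adjusted p = 1.41e-06 and 9.97e-07).

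Cdc25c (ENSMUSG00000044201.10, chromosome 18), a phosphatase that mice can do without, was close to the limit of detection at MII. Sex-converted MII libraries held 1 and 1 reads, against 146 and 231 reads in sex-converted GV libraries. Native MII libraries held 9 and 2 reads, against 213 and 147 reads in native GV libraries. From pooled reads over effective library sizes, GV exceeded MII 99.3-fold (95% exact counting interval 27.3 to 823) in the sex-converted line and 19.4-fold (10.7 to 39.3) in the native line, intervals that cover counting error only. The test gave adjusted p = 8.37e-06 and 2.69e-05 for log2 fold changes of -6.49 and -4.27, the second of which was -5.54 without native MII replicate 1.

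The inhibitory kinases split by gene. Wee2 (ENSMUSG00000037159.11, chr6:40439088-40466813, plus strand) encodes the oocyte kinase that guards prophase arrest and is needed again for exit from metaphase II. It had 1711 and 1855 CPM in sex-converted MII oocytes, against 372 and 416 CPM in sex-converted GV oocytes. Native MII oocytes had 1820 and 1736 CPM, against 517 and 398 CPM in native GV oocytes. All 4 MII libraries lay within a narrow range far above GV. Wee2 rose 4.52-fold (log2 2.18 ± 0.171, adjusted p = 1.7e-06) and 3.88-fold (log2 1.96 ± 0.17, adjusted p = 3.04e-06). With library totals as the only scaling its log2 fold change was 1.24 in sex-converted and 1.05 in native oocytes, still called in both lines.

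Wee1 (ENSMUSG00000031016.9, chr7:110122046-110143286, plus strand), a kinase of somatic cells, had 2.41 and 2.09 CPM in sex-converted MII oocytes, against 28.4 and 21.4 CPM in sex-converted GV oocytes. In native oocytes it had 2.86 and 2.31 CPM at MII, against 19.2 and 20.1 CPM at GV. It was 11-fold and 7.52-fold lower (log2 -3.47 ± 0.328 and -2.91 ± 0.322, adjusted p = 5.54e-06 and 1.58e-05). The small MII values rested on 20 to 30 reads a library.

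Pkmyt1 (ENSMUSG00000023908.8, chr17:23726336-23736735, plus strand) encodes Myt1, the membrane-bound kinase of the family. Its level was 71.7 and 63.7 CPM in sex-converted MII oocytes, against 38.3 and 21.5 CPM in sex-converted GV oocytes, and 71.5 and 58.2 CPM in native MII oocytes, against 23.2 and 45.8 CPM in native GV oocytes. Spread at GV was wide. The increases were 2.27-fold (log2 1.18 ± 0.348, adjusted p = 0.0114) and 1.88-fold (log2 0.91 ± 0.347, adjusted p = 0.0372), the least certain of the 10. Leaving out single libraries gave log2 0.52 to 1.47 in the native line, where the call held in 3 of 8 such fits; the lowest, 0.52 (adjusted p = 0.196), was without native GV replicate 1. In the sex-converted line the call was lost without sex-converted GV replicate 2 (log2 0.85, adjusted p = 0.0712). With library totals as the only scaling it was 0.24 (adjusted p = 0.577) and -0.008 (adjusted p = 0.985). The antisense gene Paqr4 overlaps Pkmyt1 by 550 bases and moved the other way, with 33 to 56 reads in MII libraries and 377 to 461 in GV libraries; the sources used here do not give the strand used in counting.

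Levels of different genes were compared per kilobase of merged exons. At MII the order was Wee2 (568 ± 32.4 CPM per kb in sex-converted and 566 ± 18.9 in native oocytes, SD, n = 2), Ccnb1 (445 ± 37.4 and 412 ± 3.81) and Ccnb2 (147 ± 8.2 and 139 ± 5.69), followed by Pkmyt1 (18.6 ± 1.55 and 17.8 ± 2.58) and Cdc25b (13.2 ± 8.74 and 10.4 ± 0.0151). Pkmyt1 and Cdc25b overlapped in the sex-converted line, and Cdc25a came next (1.72 ± 0.0538 and 1.31 ± 0.265). Ccnb3, Wee1 and Cdk1 did not differ beyond their spread at MII, with means of 0.562 to 0.808 CPM per kb. Cdc25c was last in the order, at 0.0208 ± 0.00207 and 0.111 ± 0.0903 CPM per kb, and in native MII oocytes its libraries overlapped those of Cdk1. Wee2 ranked 76th and 79th of 14921 genes at MII, and Ccnb1 ranked 96th and 109th. At GV the order again began with Wee2 (126 ± 10 and 146 ± 26.9 CPM per kb), Ccnb1 (97 ± 0.804 and 86 ± 2) and Ccnb2 (64 ± 11.3 and 68.1 ± 9.18), but Cdc25b (39.9 ± 5.16 and 37.2 ± 8.29), Cdc25a (17.7 ± 1.88 and 16.3 ± 3.43) and Cdk1 (16.8 ± 0.425 and 19.4 ± 0.139) came next. Cdc25a and Cdk1 overlapped in sex-converted GV oocytes, while in native GV oocytes Cdk1 stood above Cdc25a without overlap. The replicates also overlapped for Pkmyt1 and Ccnb3, which came below them in both lines. With the longest coding transcript as the length, Ccnb1 stood above Wee2 in sex-converted MII, native MII and sex-converted GV oocytes.

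**Figure D3:**
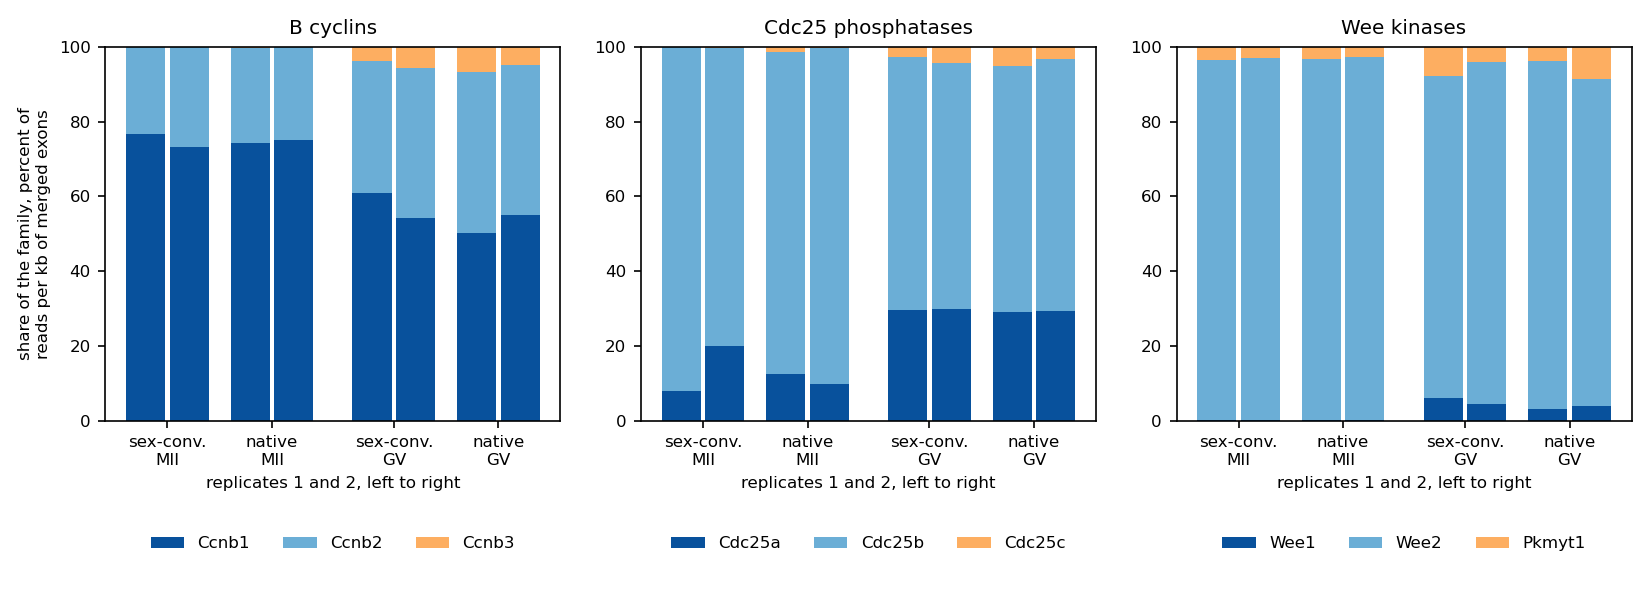
Share of each gene in the summed level of its family, in percent of reads per kb of merged exons, for each library; paired bars are replicates 1 and 2. Ccnb2, Ccnb3, Cdc25a, Cdc25c, Wee1 and Pkmyt1 take a smaller share at MII than at GV in both lines.

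In each family the same gene had the largest share at both stages, and that share was larger at MII. Among B cyclins the lead was narrow at GV, where Ccnb2 held 37.8% in sex-converted and 41.5% in native oocytes. Ccnb1 made up 74.9 ± 2.58% of the B cyclin level in sex-converted MII oocytes, against 57.6 ± 4.6% in sex-converted GV oocytes (SD, n = 2). In native oocytes its share was 74.6 ± 0.628% at MII, against 52.7 ± 3.44% at GV. Cdc25b supplied 85.8 ± 8.6% of the Cdc25 level in sex-converted MII oocytes, against 66.9 ± 1.17% in sex-converted GV oocytes, and 88 ± 2.62% in native MII oocytes, against 66.6 ± 1.13% in native GV oocytes. Wee2 supplied 96.7 ± 0.448% of the Wee kinase level in sex-converted MII oocytes, against 88.9 ± 3.75% in sex-converted GV oocytes. Its share in native oocytes was 96.8 ± 0.344% at MII, against 90.3 ± 4.19% at GV. These shares do not depend on the library scaling, but they depend on the lengths used. No test was made on them.

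Summed per kilobase, the B cyclins and Wee kinases were higher at MII and the Cdc25 phosphatases lower. The size of these differences depends on the library scaling. B cyclins came to 593 ± 29.4 CPM per kb in sex-converted MII oocytes, against 169 ± 14.9 in sex-converted GV oocytes, and to 552 ± 9.75 in native MII oocytes, against 164 ± 14.5 in native GV oocytes. Wee kinases came to 587 ± 30.8 CPM per kb in sex-converted MII oocytes, against 141 ± 5.33 in sex-converted GV oocytes. The native sums were 585 ± 21.6 CPM per kb at MII, against 161 ± 22.3 at GV. Cdc25 phosphatases, which oppose the Wee kinases, came to 14.9 ± 8.69 CPM per kb in sex-converted MII oocytes, against 59.6 ± 6.68 in sex-converted GV oocytes, and to 11.9 ± 0.37 in native MII oocytes, against 55.7 ± 11.5 in native GV oocytes.

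Ratios within a library, which no scaling of libraries can move, showed the same split as differences of log2 level. Ccnb1 exceeded Cdk1 by 10.03 ± 1.49 (SD, n = 2) on the log2 scale per kb in sex-converted MII oocytes, against 2.53 ± 0.024 in sex-converted GV oocytes, a shift of 7.50. In native oocytes it did so by 9.88 ± 1.98 at MII, against 2.15 ± 0.044 at GV, a shift of 7.73. Wee2 relative to its paralog Wee1 shifted by 5.64 in the sex-converted line and 4.90 in the native line. Wee2 relative to the opposing phosphatase gene Cdc25b shifted by 3.95 and 3.78. By contrast, Ccnb1 relative to Wee2, the most abundant activator and inhibitor mRNAs, shifted by only 0.016 and 0.29.

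Between the lines, none of the 10 genes was called at either stage by edgeR. At MII 1 of the 10 passed an unadjusted p under 0.05, as did 3.68% of all genes, and at GV none did, against 2.14% of all genes. Over all genes 0.0134% were called at each stage. DESeq2 called 2 genes higher and 1 lower in the sex-converted line at each stage over the whole table, and none of the 10. Libraries of the lines did not overlap for 3 of the 10 genes at each stage, Ccnb1, Cdc25a and Cdc25c at MII and Cdk1, Ccnb1 and Wee1 at GV, against 31.0% of all genes at MII and 23.5% at GV. The median absolute log2 difference was 0.22 for the 10 genes and 0.23 for all genes at MII, and 0.19 for both at GV.

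The intervals say how close the lines were. For 6 of the 10 genes at MII and 8 at GV the whole 95% interval of the difference lay within 2-fold. Ccnb1 differed by log2 0.11 (sex-converted over native, interval -0.20 to 0.42) at MII and 0.17 (-0.14 to 0.48) at GV. Wee2 differed by 0.004 (-0.36 to 0.37) at MII and -0.22 (-0.58 to 0.15) at GV. For Cdk1 the limits were wide, at -1.91 to 1.28 around -0.31 at MII and -1.38 to 0.97 around -0.20 at GV. All groups shared 1 estimate of the spread, so the GV interval also carried the wide spread of Cdk1 at MII. The GV libraries themselves were at 81.4 and 84.4 CPM in sex-converted and 95.1 and 96 CPM in native oocytes. Leaving out single libraries moved the Cdk1 difference at MII between -1.80 and 1.75, without sex-converted MII replicate 1 at one end and without native MII replicate 1 at the other.

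**Figure D4:**
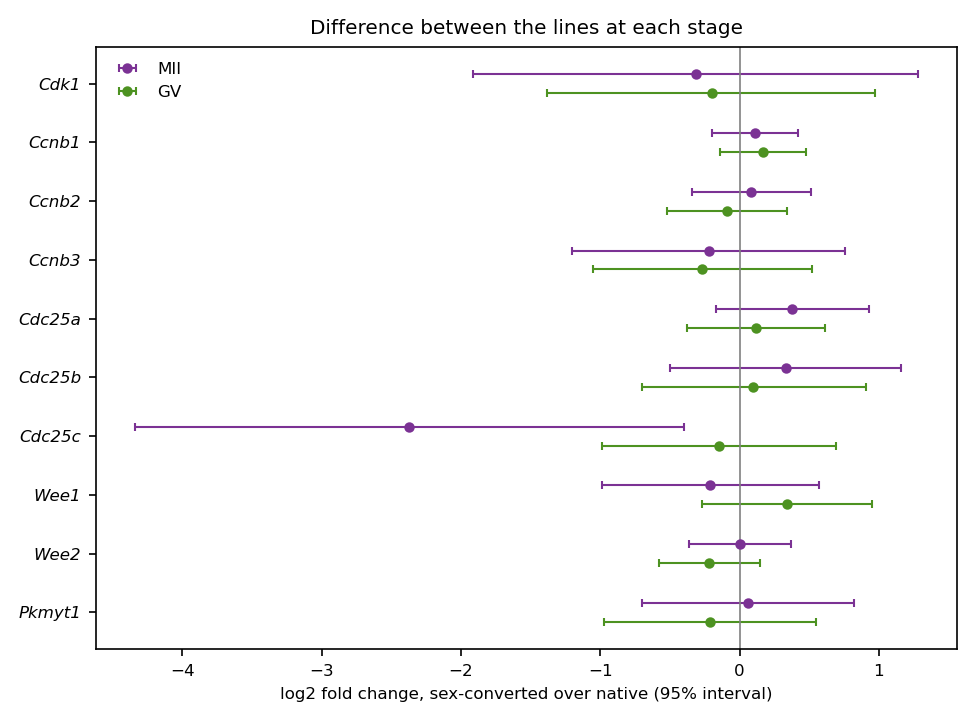
Log2 fold change of sex-converted over native oocytes for each gene at MII (purple) and GV (green), with 95% intervals from the quasi-likelihood fit. All intervals include 0 except that of Cdc25c at MII, which runs from -4.34 to -0.40.

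Cdc25c was the gene with the unadjusted p under 0.05 at MII. Its difference was -2.37 (interval -4.34 to -0.40, edgeR unadjusted p = 0.0225, adjusted p = 1), resting on 1 and 1 reads in sex-converted MII libraries, against 9 and 2 reads in native MII libraries. Without native MII replicate 1, one of the libraries with the higher stromal marker sums, it was -1.10. At GV the lines differed by -0.15 (-0.99 to 0.69).

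The change in maturation itself was compared between lines as an interaction (log2 change of sex-converted oocytes less the log2 change of native oocytes). None of the 10 genes was called by edgeR or DESeq2, as for all genes, of which 0% were called and 2.20% had an edgeR unadjusted p under 0.05. Cdc25c had an interaction of -2.22 (interval -4.38 to -0.061, edgeR unadjusted p = 0.0448, adjusted p = 1), which was -0.95 without native MII replicate 1. For Ccnb1, Ccnb2 and Wee2 the interval lay within 2-fold, at -0.50 to 0.38, -0.43 to 0.77 and -0.29 to 0.73.

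Duplicates at GV varied in a shared direction for all of the genes but Cdk1, although some gaps were small. Sex-converted GV replicate 1 and native GV replicate 2 had the higher Pkmyt1, Wee1, Cdc25a and Cdc25b of their pairs, and the lower Ccnb1, Ccnb2, Ccnb3, Cdc25c and Wee2. The gap was widest for Pkmyt1, at 38.3 and 45.8 CPM in those libraries, and 21.5 and 23.2 CPM in the other GV libraries. For Ccnb1 it was small, at 406 and 357 CPM in those libraries, and 411 and 369 CPM in the other GV libraries. Over all genes, deviations of same-numbered GV libraries of the lines from their group means had a correlation of -0.443.

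Genes whose pattern over the 8 libraries was closest to that of 3 of the genes were found by the root mean square distance of centred log2 CPM among 7683 genes with a mean of at least 10 CPM. Closest to Cdk1 were Elp3 (distance 0.124), Nosip (0.196) and Ndufb1-ps (0.221). Elp3, which encodes a subunit of the Elongator complex, had mean levels of 5.32 and 6.52 CPM in sex-converted and native MII oocytes, against 149 and 166 CPM in sex-converted and native GV oocytes. Closest to Ccnb1 were 4931406P16Rik (0.0631), Bnip3 (0.079) and Atxn7 (0.0824), and closest to Wee2 were Zfand5 (0.0524), Thoc7 (0.064) and Yeats4 (0.0659). Zfand5 had 722 and 741 CPM in sex-converted and native MII oocytes, against 169 and 187 CPM in sex-converted and native GV oocytes.

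The genes around the switch were followed as 5 lists of other cyclins, other Cdk subunits and inhibitors, the Greatwall pathway, regulators of Cdc25 and Wee, and the destruction and export machinery of cyclin B. None of their tested genes was called by edgeR between the lines or for the interaction. In maturation each list held genes of both directions. Counts are read against the shares of all genes, which were 29.3% higher and 36.2% lower in the sex-converted line and 29.6% and 35.7% in the native line. Scaled by library totals alone, these shares were 15.9% and 52.1% in the sex-converted line and 16.7% and 51.0% in the native line. Values named below are means over 2 libraries, ± SD.

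**Figure D5:**
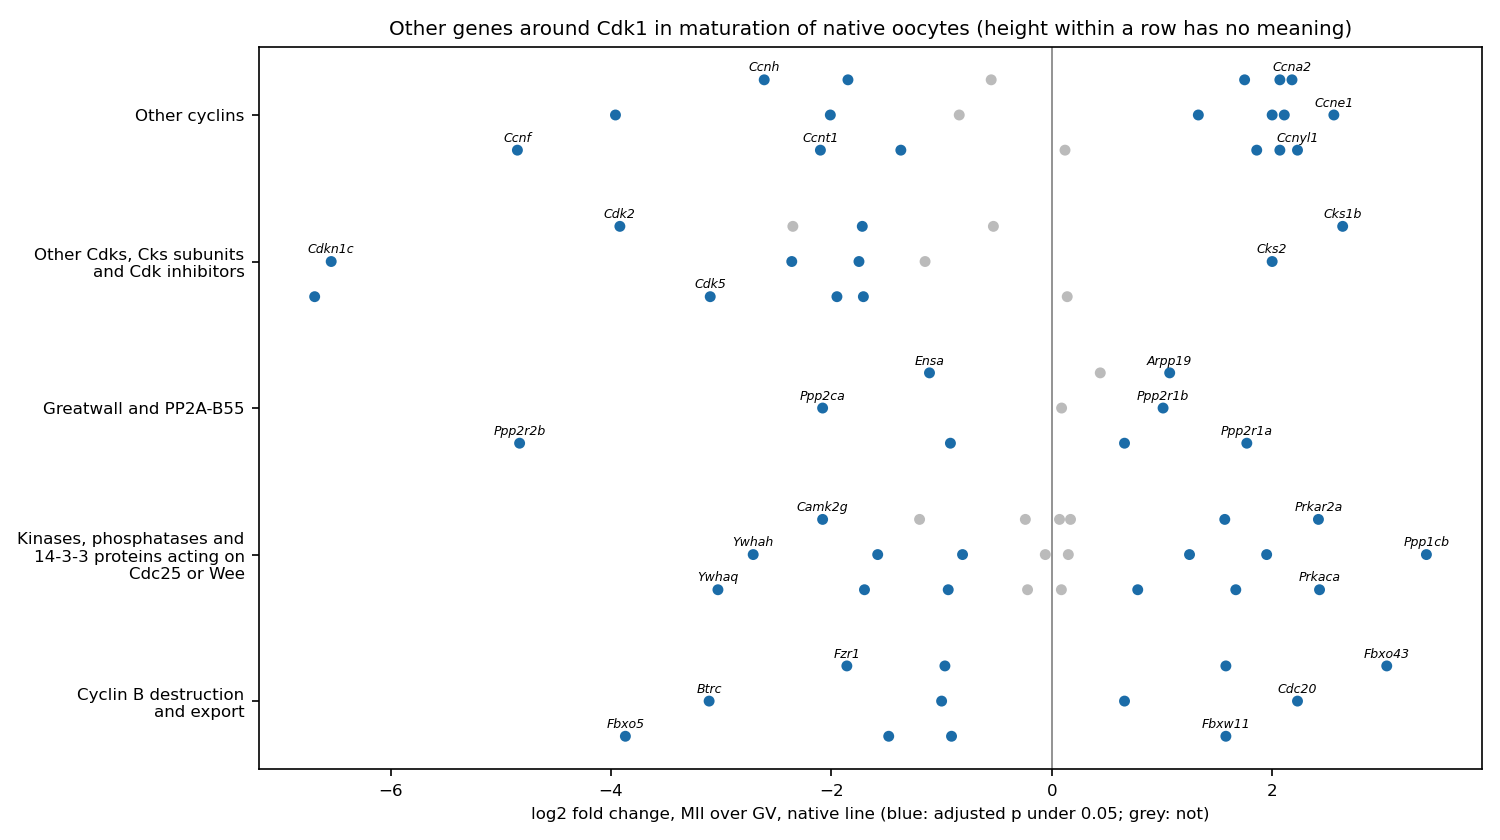
Log2 fold change of MII over GV in native oocytes for the tested genes of 5 lists around Cdk1; blue points were called at adjusted p under 0.05 and grey points were not. Cks1b and Cks2 are the only raised genes of the second list, and Ppp1cb and Fbxo43 have the largest increases of their lists.

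Of 20 tested other cyclins, 10 rose (50%, against 29.3% and 29.6% of all genes) and 7 fell (35.0%, against 36.2% and 35.7%) in both lines, with a median log2 fold change of 0.83 in the sex-converted and 0.72 in the native line, against -0.35 and -0.31 for all genes. Scaled by library totals alone, 9 rose and 9 fell in each line. Ccna2, cyclin A2, which also partners Cdk1, had 729 ± 20.4 and 720 ± 0.11 CPM in sex-converted and native MII oocytes, against 171 ± 34.7 and 159 ± 11.7 CPM in sex-converted and native GV oocytes (log2 2.10 and 2.18). Ccne1, a partner of Cdk2, rose by 2.17 and 2.56, and Ccnyl1 by 2.10 and 2.23. Ccnf, an F-box cyclin, fell to 1.18 ± 1.27 and 1.84 ± 1.45 CPM in sex-converted and native MII oocytes, against 52 ± 5.49 and 55 ± 4.83 CPM in sex-converted and native GV oocytes (log2 -5.50 and -4.85). Its values varied with single libraries, at -7.47 without sex-converted MII replicate 1, -4.64 without sex-converted MII replicate 2 and -6.08 without native MII replicate 1. Ccnt1, a partner of the transcription kinase Cdk9, fell by 1.99 and 2.10. Ccnh, the cyclin of the kinase that activates Cdks, changed by -2.42 and -2.61, and by -3.0, -1.36 and -1.93 without sex-converted GV replicate 1, sex-converted GV replicate 2 and native GV replicate 1.

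Of 15 tested Cdks, Cks subunits and Cdk inhibitors, 2 rose and 8 fell in the sex-converted line and 2 rose and 9 fell in the native line (median log2 -1.88 and -1.75). The shares were 13.3% higher and 53.3% lower, against 29.3% and 36.2% of all genes, in the sex-converted line, and 13.3% and 60.0%, against 29.6% and 35.7%, in the native line. With library totals 2 rose and 10 fell in the sex-converted line and 2 rose and 12 fell in the native line. The raised genes were Cks1b and Cks2, the small subunits that bind Cdk1. Cks1b had 369 ± 31.9 and 398 ± 41 CPM in sex-converted and native MII oocytes, against 60 ± 7.63 and 63.6 ± 9.31 CPM in sex-converted and native GV oocytes (log2 2.62 and 2.64, adjusted p = 1.49e-06 and 1.37e-06). Cks2 rose by 1.87 and 2.00. Cdk2, the kinase closest to Cdk1, fell by 3.62 and 3.92, and the first value was -3.02 without sex-converted GV replicate 1, -4.71 without sex-converted MII replicate 1 and -2.97 without sex-converted MII replicate 2. Cdk5 fell by 3.54 and 3.10, the second being -4.24 without native MII replicate 1. The Cdk inhibitor gene Cdkn1c had 2 reads in all at MII in each line, all in replicate 1, against 360 and 346 reads at GV in the sex-converted and native line. By pooled reads GV exceeded MII 94.8-fold (exact counting interval 26.1 to 786) and 103-fold (28.2 to 852). Its fitted log2 fold changes of -6.44 and -6.54 were -5.41 and -5.74 without replicate 2 of MII, and -10.11 and -10.20 without replicate 1, values set by 0 reads and no bound.

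The Greatwall pathway, in which the inhibitors Ensa and Arpp19 restrain the phosphatase PP2A-B55 that opposes Cdk1, had 4 of 10 tested genes higher and 4 lower in both lines (40.0% each way, against 29.3% and 36.2% of all genes in the sex-converted and 29.6% and 35.7% in the native line). The median log2 fold changes were 0.25 and 0.26. Scaled by library totals alone, the counts were 1 higher and 4 lower in the sex-converted line and 1 higher and 5 lower in the native line. Ppp2r1a, a scaffold subunit, rose by 1.85 and 1.77, whereas the catalytic subunit gene Ppp2ca fell to 47.4 ± 2.12 and 46.2 ± 2.69 CPM in sex-converted and native MII oocytes, against 190 ± 38.5 and 196 ± 54.3 CPM in sex-converted and native GV oocytes (log2 -2.00 and -2.08). Arpp19 rose by 1.32 and 1.07, and Ensa, its paralog, fell by 0.99 and 1.11. The call of Ensa was lost in the sex-converted line without sex-converted GV replicate 1 (-0.83, adjusted p = 0.0562) and without sex-converted MII replicate 2 (-0.83, adjusted p = 0.0716). Ppp2r1b, the other scaffold gene, had 0.95 and 1.01. With library totals Arpp19 was at 0.39 and 0.16 and Ppp2r1b at 0.016 and 0.093, none of them called. The B55 subunit gene Ppp2r2b fell by 3.00 and 4.83.

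Among 23 kinases, phosphatases and 14-3-3 proteins that act on Cdc25 or Wee, 8 rose and 7 fell in both lines. These shares, 34.8% and 30.4%, were near those of all genes, at 29.3% and 36.2% in the sex-converted and 29.6% and 35.7% in the native line, and the medians were -0.12 and 0.07. With library totals 5 rose and 13 fell in the sex-converted line and 6 rose and 13 fell in the native line. Prkaca, the catalytic subunit of the cAMP-dependent kinase that holds prophase arrest, had 212 ± 4.74 and 219 ± 20.6 CPM in sex-converted and native MII oocytes, against 44.6 ± 6.34 and 40.8 ± 7.32 CPM in sex-converted and native GV oocytes (log2 2.25 and 2.43). Its regulatory subunit gene Prkar2a rose by 2.33 and 2.42. Ppp1cb, a catalytic subunit of protein phosphatase 1, rose by 3.38 and 3.40. The 7 genes of 14-3-3 proteins, which bind phosphorylated Cdc25, did not move together. In both lines Ywhaq, Ywhah and Ywhab fell, Ywhaz rose by 1.87 and 1.95, and Ywhae, Ywhag and Sfn were not called. The log2 fold changes were -2.69 and -3.03 for Ywhaq and -2.57 and -2.71 for Ywhah. Camk2g, a calcium-activated kinase that acts at egg activation, fell by 2.06 and 2.08, the first being -2.73 without sex-converted MII replicate 1.

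Of 12 tested genes of cyclin B destruction and export, 4 rose and 5 fell in the sex-converted line and 5 rose and 7 fell in the native line. The shares were 33.3% and 41.7%, near the 29.3% and 36.2% of all genes, in the sex-converted line, and 41.7% and 58.3%, against 29.6% and 35.7%, in the native line, with medians of -0.42 and -0.94. With library totals the counts were 3 and 7 in the sex-converted line and 4 and 7 in the native line. Fbxo43, which encodes Emi2, the inhibitor that keeps cyclin B from destruction in metaphase II arrest, had 883 ± 14.2 and 897 ± 14.8 CPM in sex-converted and native MII oocytes, against 116 ± 19 and 109 ± 10.9 CPM in sex-converted and native GV oocytes (log2 2.93 and 3.04, adjusted p = 5.95e-07 and 4.95e-07). Its paralog Fbxo5, Emi1, fell, with log2 fold changes of -3.29 and -3.87, the first being -4.17 without sex-converted MII replicate 1. The activators of the anaphase-promoting complex split as well, since Cdc20 rose by 2.17 and 2.23 and Fzr1, which encodes Cdh1, fell by 2.23 and 1.86. The paralogous F-box genes of the complex that marks Wee1 and Emi proteins for destruction also went opposite ways. Fbxw11 rose by 1.24 and 1.58, and Btrc fell to 26 ± 3.23 and 32.8 ± 10.4 CPM in sex-converted and native MII oocytes, against 271 ± 4.21 and 284 ± 42.8 CPM in sex-converted and native GV oocytes (log2 -3.38 and -3.11). With library totals Fbxw11 was at 0.30 in the sex-converted line and not called there.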

How the data were processed

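The deposited table holds raw counts of reads per gene in 8 libraries, which the authors made with Trimmomatic 0.38, HISAT2 2.1.0 and featureCounts 2.0.0 on mm10, per the submitters' processing notes, which also name DESeq2 1.30.1. Libraries were single reads of 75 bases from a directional kit with 13 PCR cycles, per the labels. The sources used here do not give the counting strand, the handling of multi-mapping reads or the annotation release. Names, coordinates and transcripts came from GENCODE M21 on GRCm38 (55144 identifiers matched, 241 did not).

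The quasi-likelihood test of edgeR 4.0.16 (R 4.3.3) was run on the deposited counts with TMM factors, all 8 libraries in 1 fit with a coefficient per group and 4 residual degrees of freedom, after filterByExpr at a minimum count of 10. The common biological coefficient of variation was 0.243. Tests were two-sided, with Benjamini-Hochberg adjustment over all 14929 genes and a threshold of 0.05. The standard error of a log2 fold change was its size divided by the root of the F statistic. TMM factors were 0.714 to 0.733 at MII and 1.33 to 1.43 at GV. The fits were tested on simulated data. Alternatives were RLE factors, library totals, DESeq2 1.42.0, other filters, a replicate block, the 4 libraries compared alone and leaving out each library.

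All 10 genes are named. From each list, up to 3 called genes in each direction in native oocytes are named, by largest absolute log2 fold change where the higher stage averaged 10 CPM or more; of the 14-3-3 genes, the others were named after their values were seen. The genes, lists and rules were chosen with earlier results of these data known.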

Additional observations from a re-analysis of the deposited data

How the results depend on the processing

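Between the lines and for the interaction, 0 of the 10 genes were called in the main fit and under every alternative run. With these counts included, 148 of the 150 counts of genes called over the 5 comparisons kept within 1.5 times the reported count. The loss of a single called gene, as for Pkmyt1 in the native line, stayed within that range. The exceptions came from library totals as the only scaling, under which 2 of the 10 genes were called higher at MII in the sex-converted line and 2 in the native line. Over all genes that scaling called 2372 higher and 7785 lower in the sex-converted line and 2488 and 7614 in the native line. The increase of Pkmyt1 was absent under it in the native line (log2 -0.008). All 6 decreases were called in both lines under every alternative run.

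Over all genes the replicate numbers gave no consistent pairing, with correlations of -0.443 to 0.171 between deviations of same-numbered libraries of different groups. The highest, 0.171, was between the lines at MII. There, replicate 1 also held more Cdk1 reads and the higher stromal marker sum in both lines. Whether same-numbered libraries were handled together was not tested. With the replicate block 3 genes were called higher in the native line, in place of 4, because Pkmyt1 was lost (log2 0.89, adjusted p = 0.057), and no other call changed. With the numbers crossed at GV, an alternative chosen after seeing the data, 0 of the 10 genes were called between lines. A minimum mean of 50 reads also ended the Pkmyt1 call in the native line (log2 0.84, adjusted p = 0.0563).

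With longest coding transcripts as lengths, Ccnb1 made up 83.5% and 83.3% of B cyclins in sex-converted and native MII oocytes, against 69.7% and 65.3% in sex-converted and native GV oocytes. Cdc25b made up 77.2 ± 12.6% of its family in sex-converted MII oocytes, against 52.1% in sex-converted GV oocytes, and 80% in native MII oocytes, against 51.7% in native GV oocytes. Wee2 made up 94.8% and 95% of Wee kinases in sex-converted and native MII oocytes. Cdc25c at MII had too few reads to be fitted in the 4 MII libraries alone, and its depth of 1 to 9 reads limits any statement on the lines.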
